A study of Homo sapiens with 40 samples.

Results

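NCIH1975 is an established human lung adenocarcinoma cell line that carries activating mutations of the EGFR gene, and the experiment described here compared its cells after GSK3368712 with its cells after the vehicle dimethyl sulfoxide (DMSO). Every gene with a value for NCIH1975 in the authors' deposited table of comparisons was taken, which gave 12972 genes, where 19280 genes had a value in at least 1 line and 58336 genes were in the table. NCIH1975 contributed 4 of the 40 libraries of the study, 2 after GSK3368712 and 2 after DMSO. The study covered 10 non-small cell lung cancer lines, each with the same design and with DMSO libraries of its own. The row labels of the deposited table place NCIH1975, PC9, NCIH1563 and NCIH522 in lung adenocarcinoma and EBC1, LK2, NCIH226, NCIH520, SKMES1 and SW900 in lung squamous cell carcinoma. The labels give no dose of the compound. The titles carry the tag D5, which no label explains.

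GSK3368712 is a small molecule inhibitor of the type I arginine methyltransferases. These enzymes place asymmetric dimethyl groups on arginines of histones and of many RNA-binding proteins, and PRMT1 is the main one in most cells. Arginine methylation is known to touch transcription, splicing, growth factor signalling and the sensing of nucleic acids. Lung adenocarcinoma lines with mutant EGFR depend on signalling from that receptor through the MAP kinase cascade.

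The deposited values were, for each gene, the log2 fold change with its standard error, an adjusted p-value from DESeq2 and the mean of the normalized counts over the libraries compared. Row labels name the compound before DMSO, so a positive log2 fold change is read as higher with GSK3368712, although the table itself offers no check of that direction. Values of single libraries and the depth of each library were not analysed here, so the spread between the 2 libraries of an arm enters only through the deposited standard errors. No label states that replicate libraries were separate cultures, so the p-values may measure technical spread only. In bulk RNA, fewer cells of a kind and less RNA per cell cannot be told apart. The mean normalized counts summed to 91375623 over the listed genes. The median standard error was 0.34 in NCIH1975 over all its genes. Over the 9339 genes listed in every line it was 0.32 in NCIH1975, the largest of all lines. It was 0.29 in PC9, 0.09 in both LK2 and SW900 and at most 0.115 (NCIH226) in the squamous lines. Fewer changes of a given size could therefore pass the test in NCIH1975 than in the other lines, above all the squamous ones.

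Markers of simple epithelia were all listed in NCIH1975 (6 of 6). The keratin genes KRT7, KRT8, KRT18 and KRT19 each stood above the 99th percentile of listed genes by mean normalized counts per kilobase of the longest transcript. Of the lung markers 3 of 5 were listed: NKX2-1, the transcription factor that marks the alveolar lineage, at percentile 55.4, and NAPSA and SFTA3 lower, at 23.1 and 20.8. The surfactant gene SFTPB and the phosphate transporter gene SLC34A2 were not listed. Of the squamous markers 1 of 5 was listed (TP63), of the leukocyte markers 1 of 4 (CD14), and of the fibroblast and endothelial markers 1 of 7 (COL1A1). PTPRC, CD3E, COL3A1, DCN, LUM, PECAM1 and VWF were not listed.

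At an adjusted p of at most 0.05, DESeq2 called 562 genes higher and 464 genes lower with GSK3368712 in the authors' deposited table. These are 4.33% and 3.58% of the genes listed, 7.91% in all. They are the shares to set beside the counts of called members in each gene list below. Without adjustment 2475 genes had p under 0.05. The smallest called change was 0.71 on the log2 scale and the median over all genes was 0.04. The authors' own mark, which also asks for a log2 fold change of 1 or more in either direction, took 803 genes, of which 475 were higher. Called genes without a symbol (68 of 827) are counted but not named.

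**Figure D1:**
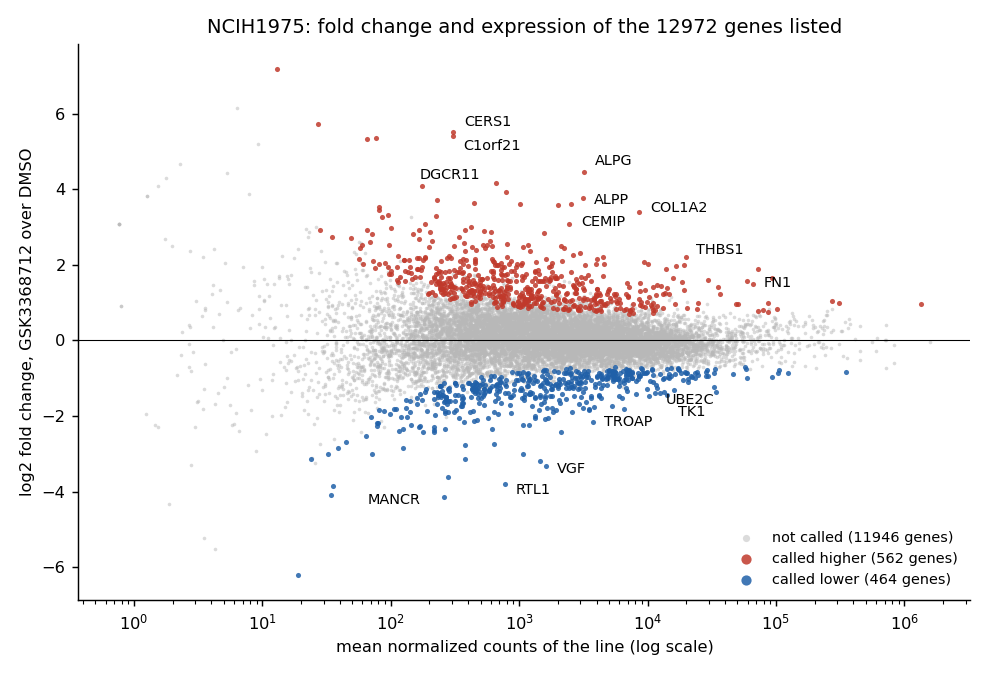
Log2 fold change (GSK3368712 over DMSO, vertical axis) against the mean normalized counts of the line (horizontal axis, log scale), 1 point for each of the 12972 genes listed in NCIH1975. The 562 genes called higher and the 464 called lower lie on both sides of the median of 0.04, and ALPG, COL1A2 and VGF are among the largest changes at counts above the median of 1612.

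The enzymes that the compound inhibits were expressed and did not pass the test. PRMT1 stood at −0.12 ± 0.27 (SE), CARM1 at −0.24 ± 0.24 and PRMT3 at −0.03 ± 0.29 on the log2 scale in the authors' deposited table. PRMT2 was at 0.30 ± 0.24 and PRMT6 at 0.12 ± 0.33 in the authors' deposited table, and PRMT8 was not listed. Per kilobase of transcript, PRMT1 had the highest level of the 5 (16062 mean normalized counts per kilobase), followed by CARM1 (7905), PRMT2 (1419), PRMT3 (229) and PRMT6 (188). Of 10 further methyltransferases and partner genes, 1 passed, BTG1, an antiproliferative partner of PRMT1, at 0.93 (adjusted p = 0.0222 by DESeq2) in the authors' deposited table; after correction for GC content and length its adjusted p was 0.101. Of 22 genes that handle methyl donors, methylarginines and polyamines, DDAH1, which breaks down methylarginines, rose by 1.12 and PAOX, a polyamine oxidase, fell by 1.11 in the authors' deposited table. Neither passed after the same correction (adjusted p = 0.112 and 0.0933). DDAH2, at 0.76 without passing in the authors' deposited table, did pass after it, at 0.94 (adjusted p = 0.00931 by the Wald test).

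The leading change above the median expression was in the placental-type alkaline phosphatases, membrane-anchored enzymes that are normally confined to placenta and germ cells. ALPG and ALPP lie close together on chromosome 2 (GENCODE 29 on GRCh38, plus strand, ALPG at chr2:232406843-232410714 and ALPP at chr2:232378534-232382889). Their 250 bases upstream of the start, from RefSeq on GRCh38.p14, plus strand, are shown because the copies are so alike, and hold none of the motifs searched, so no letter is in capitals (ALPG from chr2:232406594-232406843 and ALPP from chr2:232378501-232378750).
ALPG: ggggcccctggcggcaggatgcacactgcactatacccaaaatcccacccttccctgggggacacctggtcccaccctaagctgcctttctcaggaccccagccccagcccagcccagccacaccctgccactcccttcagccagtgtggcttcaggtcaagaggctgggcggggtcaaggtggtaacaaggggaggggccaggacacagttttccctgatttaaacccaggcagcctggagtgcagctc
ALPP: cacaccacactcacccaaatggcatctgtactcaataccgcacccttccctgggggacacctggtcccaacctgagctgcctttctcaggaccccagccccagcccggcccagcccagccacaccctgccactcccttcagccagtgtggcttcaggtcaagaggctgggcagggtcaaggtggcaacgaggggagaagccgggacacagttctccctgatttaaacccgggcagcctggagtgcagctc
An alignment of these stretches had 216 identical columns of 256 (84.4%), and the longest transcripts of the 2 genes were 89.7% identical over 2517 aligned columns. Reads may therefore have been split between the copies in an uncertain way. The upstream stretches printed for genes are counted from the RefSeq start, which can differ from that of GENCODE 29: the GENCODE genes ALPP, HMMR and CHAC1 begin earlier, so that most or all of their stretch lies within the GENCODE gene, and the last bases of the VGF stretch do.

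ALPG was higher with GSK3368712 by a log2 fold change of 4.46 ± 0.49 (SE, adjusted p = 5.97e-17 by DESeq2), and ALPP 13.6-fold higher, at 3.76 ± 0.40 (adjusted p = 7.82e-18), in the authors' deposited table. Mean normalized counts were 3198 for ALPG and 3117 for ALPP in the authors' deposited table. ALPL, the tissue-nonspecific enzyme of bone and liver, rose by 1.53 ± 0.41 (adjusted p = 0.00542) in the authors' deposited table. All 3 listed members of the family thus passed the test upwards, and the intestinal gene ALPI was not listed. In PC9 ALPG stood at 3.02 and ALPP at 2.18, and in EBC1 at 5.16 and 5.38, all called higher, in the authors' deposited table. ALPG was not listed in the other squamous lines, and in NCIH1563 its value of 0.49 did not pass in the authors' deposited table.

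Other placental genes were called higher as well. Of 53 placental and trophoblast genes 18 were listed, 7 passed upwards and 1 downwards, with a median log2 fold change of 0.65, against 0.04 over all genes listed. The pregnancy-specific glycoproteins PSG1, PSG9, PSG5 and PSG4, secreted by the trophoblast, rose by 1.65, 1.57, 1.41 and 1.31 in the authors' deposited table. The chorionic gonadotropin beta genes CGB5 and CGB8 rose by 1.87 and 1.04 in the authors' deposited table. ERVV-2, an envelope gene of an endogenous retrovirus, rose by 1.25 in the authors' deposited table. PGF, the placental growth factor that acts on blood vessels, fell by 1.65 in the authors' deposited table. PSG and CGB genes are families of near-identical copies, so the values of single copies are uncertain. The trophoblast transcription factors did not pass: TFAP2A stood at 0.06, GATA2 at 0.26 and TFAP2C at −0.63 in the authors' deposited table. CGB5 was also called higher in EBC1 (3.17), NCIH1563 (3.56) and SKMES1 (1.85, where 15.8% of genes were called higher), and PSG1 and PSG9 were listed in NCIH1975 alone, in the authors' deposited table.

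**Figure D2:**
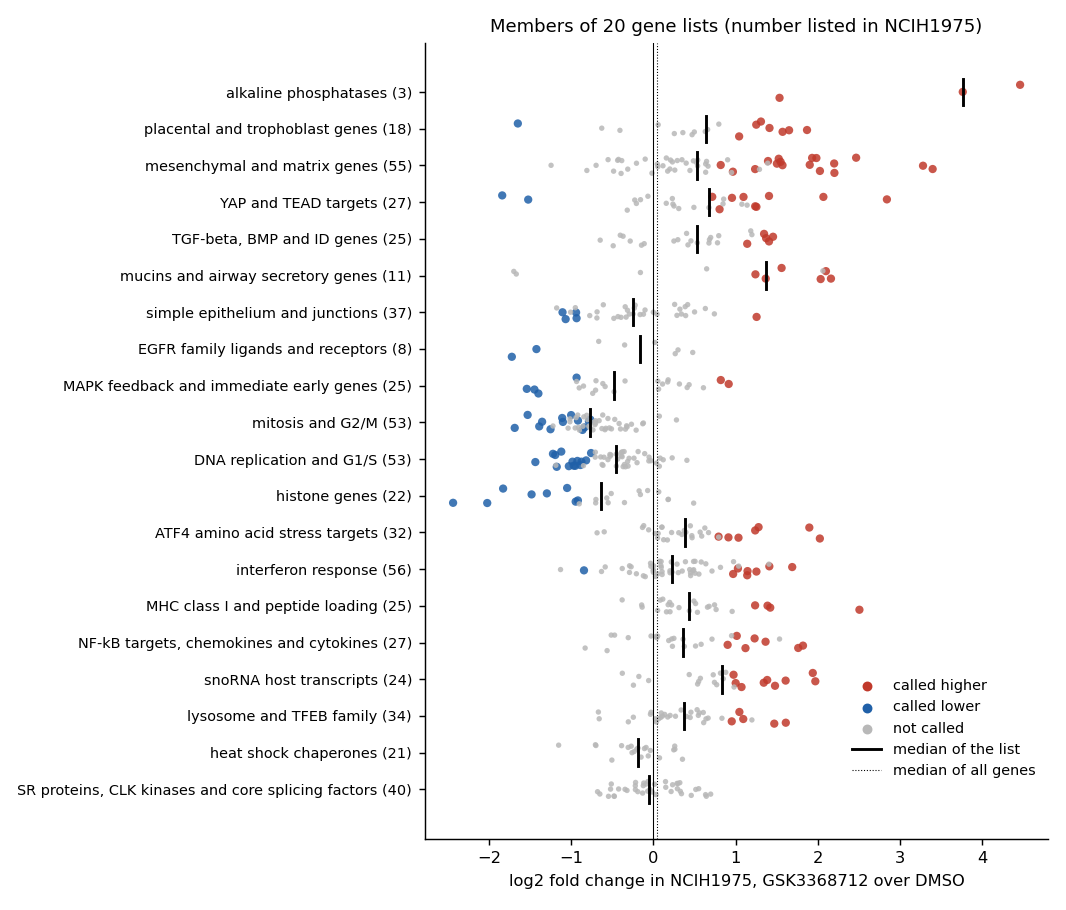
Log2 fold change in NCIH1975 (GSK3368712 over DMSO) of the listed members of 20 gene lists, with called genes in red (higher) or blue (lower), the others in grey, black bars at each list's median and a dotted line at the median of all genes. The 53 mitosis genes centre at −0.77 with no member called higher, and the 55 mesenchymal and matrix genes centre at 0.52 with no member called lower.

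EGFR itself stood at 0.02 ± 0.41 (SE) in the authors' deposited table, while 2 of the genes for its ligands fell. Of 14 ligands and receptors of the family 8 were listed, none passed upwards and 2 downwards. AREG, which encodes amphiregulin, fell by 1.72 ± 0.34 (adjusted p = 3.6e-05 by DESeq2) and TGFA, which encodes transforming growth factor alpha, by 1.42 ± 0.36 (adjusted p = 0.00239) in the authors' deposited table. HBEGF, another ligand, was at 0.48 ± 0.31 and did not pass in the authors' deposited table. The receptors ERBB2 and ERBB3 were at −0.35 and −0.66 in the authors' deposited table and did not pass.

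Downstream of the receptor, 25 feedback and immediate early genes of the MAP kinase cascade were listed, with a median of −0.48. Of these 4 passed downwards (16%) and 2 upwards (8%), beside 3.58% and 4.33% of all genes listed. After the correction for GC content and length 6 passed downwards and 1 upwards. FOSL1, an AP-1 subunit, fell by 1.40, ETV4, an ETS factor, by 1.54, SPRED3, an inhibitor of the cascade, by 1.45 and PHLDA1 by 0.93 in the authors' deposited table. The phosphatase genes DUSP10 and DUSP1 rose by 0.92 and 0.82 in the authors' deposited table. Among other receptor tyrosine kinases and ligands, 1 of 19 rose (5.26%) and 2 fell (10.5%), beside 4.33% and 3.58% of all genes. After the same correction 2 passed upwards and 1 downwards. FGFR3 then passed (adjusted p = 0.0342 by the Wald test) and EPHB4 no longer did (0.0572). GAS6, the ligand of AXL, rose by 1.66 (adjusted p = 8.28e-07) and MST1R, the RON receptor, fell by 1.26 (adjusted p = 0.000118) in the authors' deposited table, and MET was at 0.55 without passing.

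Among epithelial genes most calls were downwards, and among matrix genes all were upwards. Of 37 listed genes of simple epithelium and its junctions, 4 passed downwards and 1 upwards (median −0.24). ESRP1, an epithelial splicing regulator, fell by 1.10, GRHL2, an epithelial transcription factor, by 1.07, the adhesion gene EPCAM by 0.94 and the tight junction gene MARVELD3 by 0.93 in the authors' deposited table. CDH1, the E-cadherin gene, was at −0.29 without passing, in the authors' deposited table. Of the lung lineage genes, 2 of 10 passed, both downwards: the transcription factor gene FOXA2 fell by 1.42 and the lipid transporter gene ABCA3 by 0.97 in the authors' deposited table, with NKX2-1 at 0.12.

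Of 78 mesenchymal and matrix genes 55 were listed, 17 passed upwards and none downwards, with a median of 0.52. The fibrillar collagen genes COL1A2, COL1A1 and COL5A1 rose by 3.40, 2.02 and 1.90 in the authors' deposited table, and COL12A1 by 2.20. MMP3, a matrix-degrading protease, rose by 3.28, CNN1, a contractile regulator, by 2.46, the matrix glycoprotein THBS1 by 2.20, the collagen cross-linking enzyme LOX by 1.98 and FN1, fibronectin, by 1.50 in the authors' deposited table. The corrected fit for GC content and length called 19 members higher and none lower. Of the 7 fibroblast and endothelial markers COL1A1 was the 1 listed, and DCN, LUM and COL3A1 were not listed. A longer list of 14 such markers had 3 listed, with values from 0.69 to 3.40 (median 2.025). Of these 2 were called higher and none lower. COL1A2 was otherwise listed in LK2 alone, at 0.10, and MMP3 in no other line, in the authors' deposited table.

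Target genes of YAP and TEAD, the growth and adhesion pathway, and of TGF-beta and BMP also had more calls upwards than downwards. Of 27 listed YAP and TEAD genes 9 passed upwards and 2 downwards (median 0.68), and 6 and 2 passed after the correction for GC content and length. ANKRD1 rose by 2.84 (adjusted p = 1.63e-10 by DESeq2) and IGFBP3, an insulin-like growth factor binding protein, by 2.07 in the authors' deposited table. WWTR1, the coactivator TAZ itself, fell by 1.84 and NT5E, the ectonucleotidase CD73, by 1.52 in the authors' deposited table. The targets CYR61 and CTGF rose by 1.24 and 1.10 in the authors' deposited table. Of 25 TGF-beta, BMP and ID genes 5 passed, all upwards (median 0.54): ID2 by 1.46, LBH by 1.41, ID4 by 1.37, ID3 by 1.35 and BAMBI by 1.14 in the authors' deposited table. The ID proteins block differentiation factors of the basic helix-loop-helix class.

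Mucin and airway secretory genes were mostly higher, with 6 of 11 listed members called upwards, none downwards and a median of 1.37. MUC1 and MUC16, membrane mucins, rose by 2.03 and 1.37, SLPI, a protease inhibitor of airway fluid, by 1.56 and the calcium-binding genes S100A9 and S100P by 2.16 and 2.10 in the authors' deposited table. Of 10 listed squamous lineage genes, KRT17 and KRT16 rose by 2.04 and 1.12, and PITX1 and SPRR1B fell by 1.13 and 2.84 in the authors' deposited table.

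VGF, the precursor of secreted neuroendocrine peptides, showed the largest fall above the median expression. Its upstream 250 bases, from RefSeq on GRCh38.p14 (chr7:101165570-101165819, minus strand, written 5′ to 3′ along the gene), are shown because this promoter is known for its cAMP response element; the capitals mark, in order, a CCAAT box (CCAAT), the element TGACGTCA and a match to TATAAA on the opposite strand.
VGF: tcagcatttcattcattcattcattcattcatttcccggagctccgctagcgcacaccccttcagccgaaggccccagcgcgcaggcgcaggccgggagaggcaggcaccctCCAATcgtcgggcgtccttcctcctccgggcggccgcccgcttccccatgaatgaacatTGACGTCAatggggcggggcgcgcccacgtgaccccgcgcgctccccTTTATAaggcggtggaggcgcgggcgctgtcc
The element lies 79 to 72 bases upstream of the start. TGACGTCA was found on 1 of the strands in 3.55% of the 9344 promoters of listed genes that had a RefSeq entry, against 2.09% of the 383 promoters of genes called higher and 2.96% of the 304 of genes called lower. The match is a description and no site of binding was measured.

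VGF fell by 3.31 ± 0.34 (SE) on the log2 scale, to 0.101 times the DMSO level, with an adjusted p of 1.33e-19 by DESeq2, in the authors' deposited table. Called the other way were 3 secretory granule genes. SCG5, a chaperone of prohormone processing, rose by 2.92, CPE, a carboxypeptidase that trims prohormones, by 2.16 and SCG2, a secretogranin, by 1.78 in the authors' deposited table. Of 9 listed neuroendocrine and secretory granule genes 3 thus passed upwards and 1 downwards. As a list 4 had a positive and 5 a negative value, with a median of −0.005. The markers SYP (0.36) and DLL3 (−0.24) did not pass in the authors' deposited table. VGF was listed in 4 other lines, PC9 (−0.82), NCIH522 (−0.58), EBC1 (−0.06) and SW900 (−0.07), in the authors' deposited table.

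All calls among genes of cell division were downwards. Of 53 listed genes of mitosis and G2/M, 13 passed downwards and none upwards, with a median of −0.77, and 51 of the 53 had a value below 0. Of the 53 DNA replication and G1/S genes, 14 passed downwards and none upwards, with a median of −0.45. After the correction for GC content and length 16 passed downwards in each list. The promoter of HMMR, a spindle-associated receptor with the largest fall of the mitosis list, is shown for its tandem cell cycle homology regions (TTTGAA, the letters that repress a gene outside G2 and mitosis), which are in capitals together with matches to CCAAT on either strand (RefSeq on GRCh38.p14, chr5:163460382-163460631, plus strand).
HMMR: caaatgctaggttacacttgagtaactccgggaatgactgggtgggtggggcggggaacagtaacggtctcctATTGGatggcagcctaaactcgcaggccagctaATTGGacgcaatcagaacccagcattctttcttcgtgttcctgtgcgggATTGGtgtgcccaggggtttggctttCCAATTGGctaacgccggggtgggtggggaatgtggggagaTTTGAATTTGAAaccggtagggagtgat
The TTTGAA letters occur 28 to 23 and 22 to 17 bases upstream of the start. On either strand they were found in 24 of the 46 mitosis promoters with an entry (52.2%), in 1 of 45 replication promoters (2.22%) and in 11.4% of the promoters of all listed genes. Mitosis genes called lower held them in 5 of 10 promoters (50%), near the share of the whole list, and all genes called lower in 13.5%. CCAAT was found in 80.4% of the mitosis promoters, 60% of the replication promoters and 41.5% of all.

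HMMR, which falls outside the rule for named genes and was chosen after its value was seen, fell by 1.69 ± 0.58 (SE, adjusted p = 0.0488 by DESeq2) in the authors' deposited table, which is close to the threshold. UBE2C, the ubiquitin-conjugating enzyme of the anaphase-promoting complex, fell by 1.39 ± 0.24 (adjusted p = 9.35e-07), and the kinase genes AURKB and PLK1 by 1.25 and 1.11 in the authors' deposited table. ESPL1, which encodes separase, fell by 1.53 and BIRC5, which encodes survivin, by 1.35 in the authors' deposited table. Among replication genes, the thymidine kinase gene TK1 fell by 1.43 ± 0.27 (adjusted p = 1.01e-05), and the origin licensing genes ORC1 and CDT1 by 1.22 and 1.17 in the authors' deposited table. MKI67, the proliferation marker, was at −0.34 and did not pass in the authors' deposited table. CDKN1A, the cell cycle inhibitor p21, was at 0.78 and did not pass either in the authors' deposited table.

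Histone genes were lower too, with 8 of 22 listed members called downwards, none upwards and a median of −0.63. The linker histone genes H1FX and H1F0 fell by 1.83 and 1.29, H2AFJ by 1.48 and the replication-dependent genes HIST1H2BJ and HIST1H2BC by 2.43 and 2.02 in the authors' deposited table. The library kit selects polyadenylated RNA, per the labels, so replication-dependent histone messages without a tail are counted only in part.

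Of 18 listed genes of the BCL2 family, which governs apoptosis, 2 passed upwards (11.1%) and 1 downwards (5.56%). Over all genes these shares were 4.33% and 3.58%. The BH3-only genes BMF and HRK, which promote cell death, rose by 2.16 and 2.02, and BNIP3, a mitophagy receptor, fell by 1.03 in the authors' deposited table. Of 28 listed p53 target genes none passed upwards and 1 downwards (3.57%), near the 3.58% of all genes. It was DDB2, a DNA damage sensor, which fell by 1.83 (adjusted p = 3.44e-07 by DESeq2) in the authors' deposited table. In the 9 other lines DDB2 was below 0 as well, from −1.36 to −0.40, in the authors' deposited table. Gasdermin and pyroptosis genes had 3 of 10 called, all upwards: CASP1 rose by 2.69, GSDMB by 2.09 and CASP4 by 1.01 in the authors' deposited table, and CASP4 did not pass after the correction for GC content and length (adjusted p = 0.0738).

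Among amino acid stress genes under the factor ATF4 all calls were upwards, with 7 of 32 called upwards, none downwards and a median of 0.39; after the correction for GC content and length 4 passed. The promoter of CHAC1, which degrades glutathione, is shown for its composite CEBP-ATF element TGATGCAA, found here on the opposite strand as TTGCATCA 209 to 202 bases upstream of the start and in capitals, with CCAAT matches on either strand also in capitals (RefSeq on GRCh38.p14, chr15:40953221-40953470, plus strand).
CHAC1: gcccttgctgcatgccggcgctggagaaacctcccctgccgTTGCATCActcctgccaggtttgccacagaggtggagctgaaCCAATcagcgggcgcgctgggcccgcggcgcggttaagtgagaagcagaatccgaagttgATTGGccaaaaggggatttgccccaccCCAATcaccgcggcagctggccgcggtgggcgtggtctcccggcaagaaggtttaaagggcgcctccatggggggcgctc
TGATGCAA occurred on either strand in 4 of the 24 list promoters with an entry (16.7%), against 0.546% of all 9344. Among list genes called higher it occurred in 1 of 6 promoters (16.7%), the same share as in the whole list. NUPR1, a stress-induced chromatin protein, rose by 2.02 (adjusted p = 4.78e-12), STC2, a secreted glycoprotein, by 1.90 and CHAC1 by 1.28 in the authors' deposited table. CTH, an enzyme of cysteine synthesis, rose by 1.03 and SLC38A2, an amino acid transporter, by 1.24 in the authors' deposited table, and SLC38A2 did not pass after the correction (adjusted p = 0.087). ATF4 itself was at 0.57 and did not pass in the authors' deposited table. Of 27 endoplasmic reticulum chaperone genes 1 rose and 1 fell (3.70% each), near the 4.33% and 3.58% of all genes. None of 21 heat shock chaperone genes passed.

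Most calls among interferon response genes were upwards. Of 56 listed, 7 passed upwards (12.5%) and 1 downwards (1.79%), beside 4.33% and 3.58% of all genes, with a median of 0.22. The guanylate-binding gene GBP2 rose by 1.69, MX2 by 1.41, STAT2, a subunit of the interferon-activated factor, by 1.25, APOL1 by 1.15 and BST2, which tethers virions, by 0.97 in the authors' deposited table. OAS3, an oligoadenylate synthetase, fell by 0.84 in the authors' deposited table. Of 18 genes on the list of nucleic acid sensing none passed upwards and 2 downwards (11.1%, beside 3.58% of all genes). These were RNASEH2C (−0.95) and RNASEH2A (−0.86) in the authors' deposited table, which encode subunits of a ribonuclease and not sensors.

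Of 25 antigen presentation genes 4 passed, all upwards, and 3 of these belong to the class II pathway: HLA-DRA rose by 2.50, its chaperone CD74 by 1.42 and HLA-DMA by 1.24 in the authors' deposited table. ERAP2, which trims class I peptides, rose by 1.39 in the authors' deposited table. B2M was at 0.68 and HLA-B at 0.96 without passing in the authors' deposited table; HLA-B passed after the correction for GC content and length (adjusted p = 0.0442). Among 18 checkpoint and natural killer ligands 4 passed upwards and 1 downwards, NT5E, already named among the YAP genes. LGALS9, which encodes galectin-9, rose by 2.50, VTCN1, the inhibitory ligand B7-H4, by 2.04, ICAM1 by 1.01 and TNFSF9 by 0.95 in the authors' deposited table. CD274, the PD-L1 gene, was at 0.12 and did not pass in the authors' deposited table. Of 27 NF-kB targets, chemokines and cytokines 7 passed, all upwards, led by IL32 at 1.76, the monocyte attractant CCL2 at 1.82 and complement C3 at 1.23 in the authors' deposited table. Of 4 listed leukocyte genes 1 passed: CD79A, part of the B cell receptor, fell by 2.13 in the authors' deposited table, while PTPRC and CD3E were not listed.

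Long non-coding host transcripts of small nucleolar RNAs were the non-coding list with the most calls. Of 24 listed, 9 passed upwards and none downwards, with a median of 0.83, and 11 passed after the correction for GC content and length. GAS5 rose by 1.97, CCDC18-AS1 by 1.94, SNHG5 by 1.61, EPB41L4A-AS1 by 1.48 and ZFAS1 by 1.38 in the authors' deposited table. Of 10 paraspeckle and nuclear retained RNA genes, MALAT1 rose by 2.48, NEAT1 by 2.44 and the cytoplasmic RNA NORAD by 1.36 in the authors' deposited table. None of 40 SR protein, CLK kinase and core splicing factor genes passed, and of 46 genes for hnRNPs and other RGG-motif proteins 1 passed in each direction, with RBM3, a cold-induced protein, up by 1.42 in the authors' deposited table. None of the 15 mitochondrially encoded genes passed (median −0.24).

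Lysosome genes had 5 of 34 called, all upwards (median 0.37), among them the glycoprotein gene GPNMB at 1.47 and the cathepsin gene CTSS at 1.61 in the authors' deposited table. Of 33 autophagy genes 3 passed upwards (9.09%, beside 4.33% of all genes), led by GABARAPL1, an ATG8 family member, at 1.65 in the authors' deposited table. After the correction for GC content and length 2 passed upwards and 1 downwards. In lipid metabolism PPARA, a nuclear receptor that drives fatty acid oxidation, rose by 1.95, and SREBF1 and SCD, which serve fatty acid synthesis, fell by 1.42 and 1.22 in the authors' deposited table. For fatty acid oxidation itself, the enzyme gene HADH fell by 0.95 in the authors' deposited table. Hypoxia and glycolysis genes had 2 of 37 called upwards (5.41%) and 4 downwards (10.8%), beside 4.33% and 3.58% of all genes. Those called downwards include CA9, a carbonic anhydrase, at −1.11 and PFKP at −0.74 in the authors' deposited table. PFKP did not pass after the correction for GC content and length (adjusted p = 0.0654). CEMIP, which takes part in hyaluronan breakdown, rose by 3.61, H19, an imprinted RNA, by 2.10 and MGP, an inhibitor of calcification, by 2.27 in the authors' deposited table. The glycosyltransferase gene B3GNT3 fell by 2.05 and IGFBP2 by 1.73 in the authors' deposited table.

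Some named transcripts share sequence with a neighbour on the same strand in GENCODE 29, so reads may be split between them. ATP6V1G2-DDX39B, a readthrough transcript that contains DDX39B, was at 3.58, DGCR11, inside DGCR2, at 4.17, CERS1, which overlaps GDF1, at 5.52, and ADCK2, which overlaps NDUFB2, at −1.89 in the authors' deposited table. The 28 listed transcripts with shared changes across the lines, taken from an earlier account of these data, had 10 called higher and 10 called lower, and since they were chosen on these libraries they are no independent evidence.

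PC9 is the other adenocarcinoma line of the study with an EGFR mutation, and its libraries are separate. Of the 562 genes called higher in NCIH1975, 427 were listed in PC9, 378 had a positive value there (88.5%) and 89 were called higher, which is 20.8% of the NCIH1975 genes listed and 27.3% of the 326 genes called higher in PC9. Of the 464 called lower, 403 were listed, 344 had a negative value (85.4%) and 85 were called lower, which is 21.1% of those listed and 34.8% of the 244 called lower in PC9. In PC9 2.56% of genes were called higher and 1.92% lower. Across the 11562 genes listed in both lines the fold changes had a Pearson r of 0.52, which is a description across genes and not across samples.

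The difference between the lines was tested for each gene from the fold changes and their standard errors (Wald test, Benjamini-Hochberg adjusted over 11562 genes). The change was higher in NCIH1975 than in PC9 for 34 genes (0.294%) and lower for 20 (0.173%), 0.467% in all. C1orf21 stood at 5.41 in NCIH1975, against 0.67 in PC9, and CERS1 at 5.52, against 0.41, in the authors' deposited table. The non-coding RNAs LINC01133 (4.07 in NCIH1975, 0.61 in PC9) and IGFL2-AS1 (3.64 and −0.37) followed in the authors' deposited table. ARNT2, a bHLH-PAS factor, had 2.03 in NCIH1975, against −1.33 in PC9, and C3 1.23, against −1.15, in the authors' deposited table. The matrix gene COL1A1 was at 2.02 in NCIH1975, against −0.34 in PC9, and the YAP target ANKRD1 at 2.84, against 0.13, in the authors' deposited table.

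In the other direction, the interferon-induced genes OAS2 and OASL differed most. OAS2 stood at 0.00 in NCIH1975, against 3.86 in PC9, and OASL at −0.63, against 3.19, in the authors' deposited table. The differences were −3.86 ± 0.57 (SE, adjusted p = 2.59e-08 by the Wald test) and −3.82 ± 0.46 (adjusted p = 6.00e-13). TGFA was at −1.42 in NCIH1975, against 0.70 in PC9, VGF at −3.31, against −0.82 there, and the epithelial splicing regulator gene ESRP1 at −1.10, against 0.41, in the authors' deposited table. UBE2C was at −1.39 in NCIH1975, against 0.13 in PC9 (difference −1.52 ± 0.38, adjusted p = 0.017 by the Wald test), in the authors' deposited table. The alkaline phosphatase genes ALPG and ALPP stood 1.44 and 1.58 higher in NCIH1975 than in PC9, without passing the test.

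**Figure D3:**
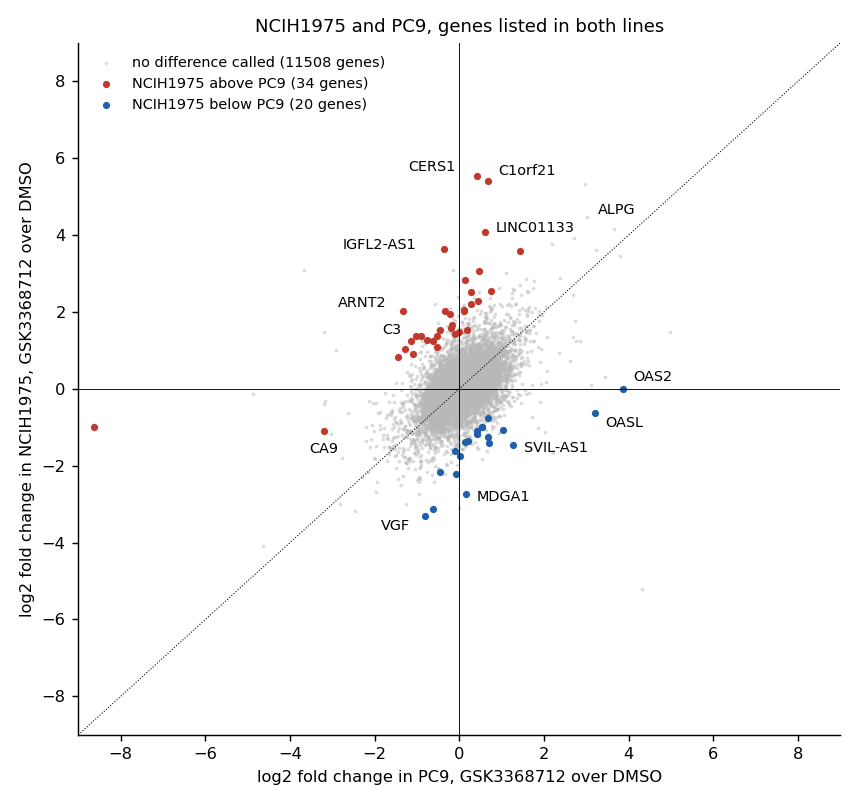
Log2 fold change in NCIH1975 (vertical axis) against that in PC9 (horizontal axis), both GSK3368712 over DMSO, for the 11562 genes listed in both lines, with a dotted line of equal change. Red points are the 34 genes with a higher change in NCIH1975 (adjusted p at most 0.05), blue points the 20 with a lower one; OAS2 and OASL lie far right, near 0 in NCIH1975.

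As a group, 51 of the 53 mitosis genes listed in both lines had a lower value in NCIH1975 than in PC9 (median −0.77 in NCIH1975, 0.08 in PC9), and 49 of 51 replication genes likewise (−0.52 and 0.30). Over all genes listed in both lines 5634 of 11562 were lower in NCIH1975. The difference passed for 1 mitosis gene, UBE2C, and for no replication gene. None of the 55 mitosis genes listed in PC9 was called there. None of the 55 listed in NCIH522 was called either (median −0.08), in a line where 1.66% of all genes were called. In EBC1 40 of 56 were called lower, beside 23.4% of all genes, with a median of −0.44, and in NCIH1563 13 of 56 were called higher and 11 lower, beside 23.3% and 24.8% of all genes. Of the same 56 genes 41 were called lower in NCIH226 (15.8% of all genes), 41 in SW900 (17.7%), 36 in LK2 (19.5%), 28 in SKMES1 (15.6%) and 20 in NCIH520 (12.3%). Among interferon genes 33 of the 52 listed in both lines had a lower value in NCIH1975 than in PC9 (medians 0.22 and 0.47), and OAS2 and OASL passed the test of the difference. Among ATF4 targets 27 of 32 had a higher value in NCIH1975, with medians of 0.39 in NCIH1975 and −0.03 in PC9, and 1 passed, CHAC1, with a PC9 value of −0.76 in the authors' deposited table.

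**Figure D4:**
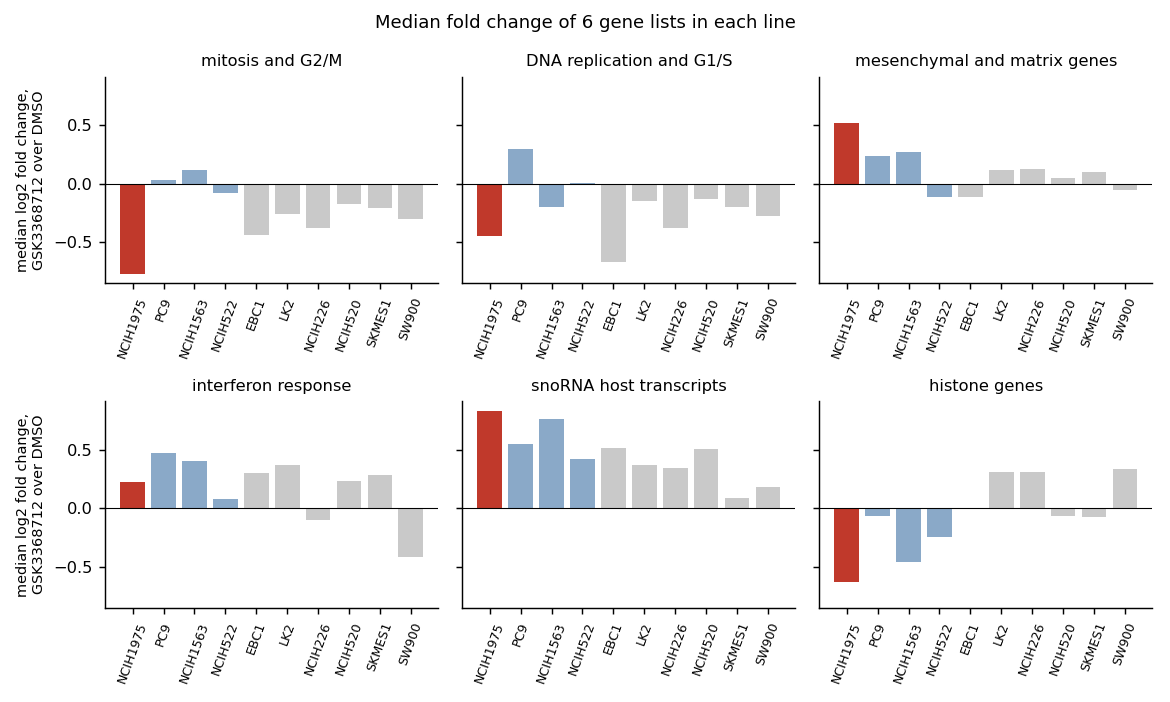
Median log2 fold change (GSK3368712 over DMSO) of 6 gene lists in each line, with NCIH1975 in red, the other adenocarcinoma lines in blue and the squamous lines in grey. The mitosis median is −0.77 in NCIH1975 and −0.44 in EBC1, against 0.04 in PC9; the snoRNA host median is 0.83 in NCIH1975 and above 0 in every line.

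Against the other lines as a group, a gene's change in NCIH1975 was set against the random-effects mean of the others, with the spread between those lines in the error (two-sided, Benjamini-Hochberg adjusted over 11800 genes listed in NCIH1975 and at least 5 others). Of these, 13 were higher in NCIH1975 (0.11%) and 6 lower (0.0508%), 0.161% in all, and 16 of the 19 are named by the rule used here. C1orf21, a gene of unsettled function, differed by 5.54 ± 0.73 (SE, adjusted p = 3.28e-10), with 5.41 in NCIH1975, against −0.84 to 0.81 in the 6 other lines that list it, in the authors' deposited table. The ceramide synthase gene CERS1 was at 5.52 in NCIH1975, against −0.34 to 2.07 in 8 other lines, and the sulfate transporter gene SLC26A2 at 2.54, against −1.81 to 0.75, in the authors' deposited table. The prostaglandin receptor gene PTGER4 was at 1.54, against −0.67 to 0.32, and the transcription factor gene SOX4 at 1.84, against −0.06 to 0.53, in the authors' deposited table. For each of these genes NCIH1975 lay outside the range of the other lines.

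GAS6 was at 1.66 in NCIH1975, against −1.19 to 0.04 in 7 other lines, KIF7, a kinesin of Hedgehog signalling, at 2.36, against 0.11 to 0.43 in 9, and the fatty acid transporter gene SLC27A2 at 1.95, against −0.79 to 0.45 in 8, in the authors' deposited table. Lower in NCIH1975 were MDGA1, a neural adhesion gene (−2.73, against −0.63 to 0.23), the spindle gene TROAP (−2.16, against −0.96 to −0.26), UTP23, a ribosome assembly factor (−1.65, against −0.68 to 0.23), PAK6, a kinase (−1.35, against 0.11 to 0.69), LARGE2 (−1.90, against −0.21 to 0.88) and SH3BP1 (−1.50, against −0.29 to 0.75), in the authors' deposited table. Without EBC1 the difference for GAS6 no longer passed (adjusted p = 0.0631), without LK2 that for TROAP (0.0517), and without NCIH520 that for CHN1 (0.0568). Against the adenocarcinoma lines alone SLC27A2 (adjusted p = 0.160), UTP23 (0.278) and CHN1 (0.325) did not pass, and 5 other named genes did. The rest of the 16 named genes were not tested there, because each of those lines had to list the gene. Without LK2 3 genes were lower in NCIH1975, against 6 with it. An unweighted limma fit with NCIH1975 as the single line of its group called 3 genes higher and 1 lower, and KIF7 and C1orf21 were the named genes that passed in both. For 8 of the 16 named genes, among them SOX4 and GAS6, the difference did not pass after the correction for GC content and length.

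**Figure D5:**
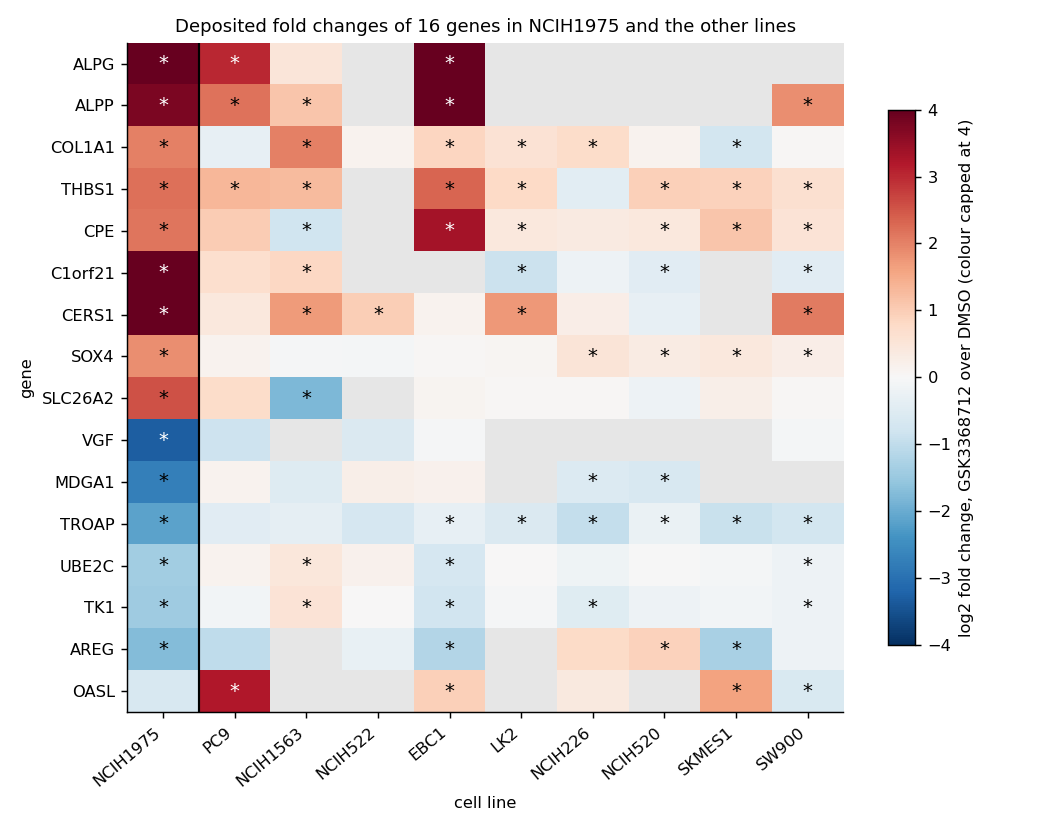
Deposited log2 fold change (colour, GSK3368712 over DMSO, capped at 4) of 16 genes in rows for each of the 10 lines in columns, NCIH1975 at the left; a star marks an adjusted p of at most 0.05 and grey a gene that is not listed. C1orf21 and CERS1 exceed 5 in NCIH1975 and no other line exceeds 2.07, while ALPG is as dark in EBC1.

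The sign of the NCIH1975 calls was shared to different degrees by the other lines. In EBC1 313 of the 451 listed genes called higher in NCIH1975 were also called higher, beside 23% of all genes, and 281 of 394 called lower were also called lower, beside 23.4%. The share with the same sign was 86.5% and 87.3% in EBC1, and 84.7% and 90.5% in SKMES1. In NCIH1563 it was 59.6% and 51.3%. Of the 443 listed genes called higher in NCIH1975, 182 were called higher in NCIH1563 and 99 lower, beside 23.3% and 24.8% of all genes. Of the 357 called lower in NCIH1975, 107 were called lower in NCIH1563 and 82 higher. Across genes the Pearson r with NCIH1975 was 0.50 for SKMES1 (11877 genes), 0.47 for EBC1 (11774) and 0.04 for NCIH1563 (11530).

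Fold changes moved with gene composition. Across 12962 annotated genes the Spearman rho between the log2 fold change and the GC content of the longest transcript was −0.21 in NCIH1975, against −0.17 in PC9, 0.03 in EBC1 and 0.37 in NCIH1563, and with its length 0.16 in NCIH1975, against 0.23 in PC9, 0.03 in EBC1 and −0.24 in NCIH1563. Genes called higher had a median GC content of 48.4%, genes called lower 56.4% and all genes 49.4%. In the quintile of genes richest in GC 3.9% were called higher and 6.98% lower, and in the quintile poorest in GC 2.85% and 0.964%. A smooth correction for both left 460 genes called higher and 503 lower, of which 419 and 394 were called the same way without it. The part of GC content in the changes of single genes was not tested.

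By gene type, 470 of 11449 protein-coding genes were called higher (4.11%) and 397 lower (3.47%). Long intergenic RNAs had 31 of 365 called higher (8.49%) and 19 lower, antisense RNAs 13 of 382 higher and 28 lower (7.33%), and transcripts inside introns on the same strand 7 of 37 higher (18.9%) and 1 lower. Of the genes called higher 13 were listed in no other line and of those called lower 14, against 157 of all 12972.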

How the data were processed

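RNA of 4 NCIH1975 libraries was analysed through the authors' deposited table, which holds 1 row per gene and line. Per the labels' protocols, total RNA (miRNeasy) was made into TruSeq Stranded mRNA libraries with a stated depth of 100 M paired reads of 151 bases. The submitters' processing notes list FastQC, Salmon 0.12.0 for quantification, the build GRCh38, DESeq2 for the comparison and a filter at an FPKM of 1. Whether quantification used strand, and the DESeq2 version, are not given in the sources used here. The deposited values are the log2 fold change and its standard error, the Wald statistic (a score), the adjusted p-value and the mean normalized counts, a signal averaged by the authors over the libraries of a line. Because no counts per library were used, the test the authors ran with DESeq2 is the main test, at an adjusted p of 0.05.

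Differences from the other lines (at least 5) and from PC9 were computed in Python 3.11.15 with numpy 2.4.6, pandas 2.3.3 and scipy 1.17.1, and checked on simulated data. Limma 3.58.1 in R 4.3.3 gave an alternative, matplotlib 3.10.9 the figures and Biopython 1.88 the alignments. GENCODE 29 gave positions, lengths and GC content (99.9% of genes matched). Levels between genes are per kilobase of the longest transcript. Called genes are those past the threshold, and gene lists (52) are described by counts and medians.

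The members and lists were chosen with earlier results of these data known. Named genes (295) are the 15 largest changes each way above the median expression, the 10 smallest adjusted p each way, up to 5 members of each list by p, the 10 largest differences each way from the other lines and 6 from PC9, and a short set always followed. Some further list members, FN1, COL5A1, CYR61, CTGF, HMMR, KRT7, KRT18, TP63, PSG5, CGB8, ERVV-2, GATA2, TFAP2C and ATF4 among them, were chosen after their values were seen. Some genes are not reported here.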

Additional observations from a re-analysis of the deposited data

Results flagged for a closer look

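The changes below differed between NCIH1975 and other lines by a test of the difference itself, adjusted over all genes tested, and are given as NCIH1975 minus the other lines on the log2 scale. Against the mean of the other lines the change was higher in NCIH1975 for C1orf21 (5.54), CERS1 (4.66), ANKRD36B (3.19), SLC26A2 (2.64), SLC27A2 (2.37), KIF7 (2.09), GAS6 (2.01), PTGER4 (1.86), SOX4 (1.61) and CHN1 (1.51). It was lower in NCIH1975 for SH3BP1 (−1.54), TROAP (−1.56), UTP23 (−1.64), PAK6 (−1.66), LARGE2 (−2.11) and MDGA1 (−2.53).

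Against PC9 the larger differences with a higher change in NCIH1975 were those of CERS1 (5.11), C1orf21 (4.74), IGFL2-AS1 (4.01), LINC01133 (3.46), ARNT2 (3.36), ANKRD1 (2.71), SUSD2 (2.60), C3 (2.38) and COL1A1 (2.37). Smaller differences in the same direction were those of SLC27A2 (2.17), ATP6V1G2-DDX39B (2.16), CA9 (2.09), CHAC1 (2.04), S100A4 (1.97), KRT17 (1.93), MUC1 (1.93), S100A2 (1.86), MGP (1.84), GAS6 (1.82), SLC26A2 (1.79) and EPB41L4A-AS1 (1.50). Changes were lower in NCIH1975 than in PC9 for WNT7B (−1.51), UBE2C (−1.52), ESRP1 (−1.52), PAK6 (−1.56), TROAP (−1.69), TGFA (−2.12), VGF (−2.49), MYH16 (−2.52), SVIL-AS1 (−2.74), MDGA1 (−2.89), OASL (−3.82) and OAS2 (−3.86). C1orf21, CERS1, SLC26A2, GAS6 and SLC27A2 (higher) and TROAP, MDGA1 and PAK6 (lower) appear in both comparisons, which share the NCIH1975 libraries and PC9. CA9 was at −1.11 in NCIH1975, against −3.20 in PC9, in the authors' deposited table.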

How the results depend on the processing

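No paired analysis was possible because the table holds no values per library; the replicate block and leaving out single libraries were not run for the same reason. The 562 genes called higher and 464 lower (1026 in all) became 358 higher among the top 75% of genes by expression, 402 in all (186 higher, 216 lower) among the top 50%, and 209 (131 higher, 78 lower) when tested against an absolute log2 fold change of 0.5. Centring at the median gave 511 higher and 540 lower. Recomputing the adjustment kept 1026. Of the 295 named genes, 107 no longer passed against 0.5. Differences from the other lines (19 genes, 13 higher and 6 lower) became 4 (3 and 1) with limma, 30 against the adenocarcinoma lines alone (17 lower), 2 lower against the squamous lines alone, and 3 (2 and 1) over genes listed in all lines; leaving out each line in turn gave 16 to 28 in all, 12 to 19 higher and 3 to 9 lower. Differences from PC9 (54) became 32 (16 higher) among the top 75% by expression. The correction for GC content and length, added after seeing the data, gave 963 calls (460 higher, 503 lower), 14 differences from the other lines and 54 from PC9. The differences from PC9 of MUC1 and EPB41L4A-AS1 no longer passed with each line centred or among the top 75%, nor those of MGP (adjusted p = 0.0586) and MUC1 (0.0593) after the correction. No called value changed sign; values near 0 of the uncalled OAS2, EGFR, PRMT6 and CD274 did under centring or the correction. Lower calls outnumbered higher ones after centring, after the correction and among the top 50%, and the medians of 4 lists near 0 changed sign under the correction: neuroendocrine genes (−0.005, 0.16 corrected), cholesterol genes (0.01, −0.04), cancer-testis genes (0.05, −0.07) and methyltransferase partners (0.01, −0.08). The cause of these changes was not tested. With 2 libraries a side and a median standard error of 0.34, no change below 0.71 was called.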
